A study of Mus musculus with 8 samples.

Results

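The 41 genes described here encode the machinery that copies DNA and supplies its nucleotides, and they were taken by name from a list of replication factors. Each was found in the array annotation with a probe set naming it alone, so all 41 were measured, out of 18193 genes with such a probe set. Where a gene had several, the brightest (highest mean log2 intensity over the 8 arrays) stood for it. The RNA was from C57/B6 fetal livers, from stem cells sorted as lacking lineage markers and bearing Sca-1 and Kit, and each array held the cells of 1 mouse. The groups were ADAR1 -/- (null, 3 arrays), ADAR1 +/- (heterozygous, 3 arrays) and wild type (WT, 2 arrays), with the last 2 groups also pooled as 5 controls. ADAR1 edits adenosine to inosine in double-stranded RNA, and no treatment is named. Fetal age, litter and the exons removed from the null allele are not stated in the labels. Adar itself, by its brightest probe set, read 59.7, 144 and 176 linear intensity units on null arrays, against 13.1, 16.1 and 9.89 on heterozygous and 7.66 and 17.6 on WT arrays, so it rose by 3.22 ± 0.41 log2 units (SE; limma, adjusted p = 0.0170). Its other 2 probe sets differed by 0.24 ± 0.40 and -0.16 ± 0.20. Where these probes lie relative to the deletion is not known here, so they do not check the genotype, and null means the arrays labelled so.

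Before S phase, the origin recognition complex (Orc proteins), Cdc6 and Cdt1 load the ring of Mcm2 to Mcm7 onto DNA. The kinase Cdc7 with its activator Dbf4 then starts this helicase together with Cdc45 and the GINS complex, and polymerases held by the Pcna clamp copy the strands. Many of these genes are transcribed late in G1 under E2F transcription factors, and their summed level is often read as a sign of how many cells are entering S phase. Fetal liver stem cells are known to cycle far more than those of adult marrow. On arrays of sorted cells, fewer cells in S phase and less RNA per cell cannot be told apart.

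Promoters were searched for a sequence word bound by E2F factors, and the windows of the 4 members with the largest differences between null and all controls among those that carry it are shown first. Windows run from 250 bases before to 50 bases after the transcript start in RefSeq, build GRCm38.p6, and were found for 34 of the 41 members. The word searched was TTTCCCGC, TTTCGCGC, TTTGCCGC or TTTGGCGC on either strand, and matches could overlap. It was present in the windows of 13 of the 34 genes (38.2%), against 704 of 27025 genes in the whole promoter table (2.6%), and in 13 of 41 windows (31.7%) against 2.3% of all windows. The windows are Gins3 at chr8:95633309-95633608 (plus strand), Rfc3 at chr5:151651159-151651458 (minus strand), Pole2 at chr12:69228141-69228440 (minus strand) and Lig1 at chr7:13278576-13278875 (plus strand). They are printed 5′ to 3′ in the direction of transcription, and capitals mark the E2F word or its reverse complement.
Gins3: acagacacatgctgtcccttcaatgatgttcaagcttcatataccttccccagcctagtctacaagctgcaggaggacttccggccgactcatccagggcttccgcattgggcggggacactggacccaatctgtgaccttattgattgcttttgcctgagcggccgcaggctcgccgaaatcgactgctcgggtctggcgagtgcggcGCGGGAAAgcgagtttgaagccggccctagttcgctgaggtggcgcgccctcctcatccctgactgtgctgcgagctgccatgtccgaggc
Rfc3: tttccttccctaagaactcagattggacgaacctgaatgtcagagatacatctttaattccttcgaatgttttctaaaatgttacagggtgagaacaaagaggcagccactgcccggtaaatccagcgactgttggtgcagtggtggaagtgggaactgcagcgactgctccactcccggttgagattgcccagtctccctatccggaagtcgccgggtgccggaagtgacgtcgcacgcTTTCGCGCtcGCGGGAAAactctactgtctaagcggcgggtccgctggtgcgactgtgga
Pole2: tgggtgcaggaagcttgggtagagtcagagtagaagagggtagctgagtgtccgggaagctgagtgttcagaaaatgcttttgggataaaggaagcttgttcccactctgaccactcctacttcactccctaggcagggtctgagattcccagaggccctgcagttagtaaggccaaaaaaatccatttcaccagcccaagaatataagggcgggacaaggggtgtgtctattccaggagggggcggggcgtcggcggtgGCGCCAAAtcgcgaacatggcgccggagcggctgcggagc
Lig1: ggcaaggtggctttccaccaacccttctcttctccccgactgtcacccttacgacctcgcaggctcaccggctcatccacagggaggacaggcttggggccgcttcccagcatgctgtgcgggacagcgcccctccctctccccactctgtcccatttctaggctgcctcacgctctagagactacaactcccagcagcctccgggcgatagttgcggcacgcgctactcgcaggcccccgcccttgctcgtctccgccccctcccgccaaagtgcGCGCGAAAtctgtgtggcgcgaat
Counted from the transcript start of the printed window as base 1, the word begins at base -41 in Gins3 and at bases -10 and 1 in Rfc3. It begins at base 11 in Pole2 and at base 27 in Lig1. Lig1 has 3 windows, and only the 1 printed holds the word. A match is a description of the letters and not evidence of a bound site. The 13 genes with the word had a median difference of -0.46 log2 units between null and all controls, with 8 below 0. The 21 genes with a window but without the word had a median of -0.82, with 19 below 0. Dbf4, Tk1 and Rrm2, with 3 of the 4 largest differences, have no such word in this window.

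Null was first set against all 5 controls, the comparison with the most arrays. Intensities read lower in null cells for most replication genes, by a median of 0.61 on the log2 scale (-0.61, quartiles -1.14 and -0.09), and 32 of 41 differences were below 0. The largest were in Dbf4, Tk1, Gins3 and Rrm2, and the highest was 0.70 in Mcm10. No member passed the threshold, an adjusted p of 0.05 over all 45037 probe sets by limma, where 0.379% of all genes passed as lower and 0.555% as higher. At an unadjusted p under 0.05, 14 members were lower (34.1%) and 1 was higher, against 7.98% and 5.51% of all genes. The 3 null arrays lay wholly below the 5 control arrays in 10 members (24.4%) and wholly above them in 0, against 4.95% and 4.19% of all genes. Without null array 1 the member median was -0.41, with a pseudocount of 32 it was -0.39, with quantile normalization -0.46 and with cyclic loess normalization -0.27 (27 of 41 below 0). Over all genes the median difference was 0.03, with 45.9% below 0. Over the 13100 genes above array background on at least 2 arrays, a filter that all 41 members passed, the median was -0.06 and 55.4% were below 0. Of those genes, 11.1% were lower and 5.86% higher unadjusted, and null arrays lay wholly below controls in 6.76% and wholly above in 3.69%. Genes seen above background in controls alone also pass this filter, and those had to differ.

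**Figure D1:**
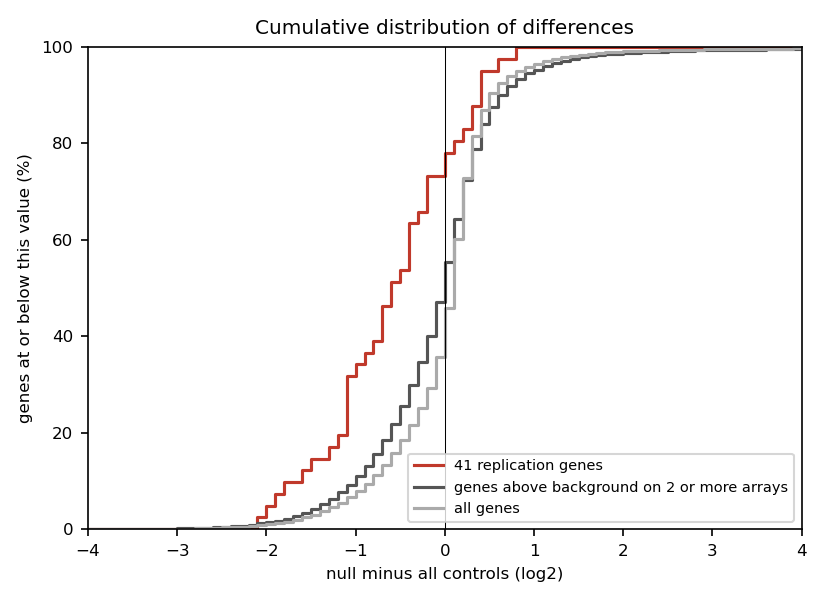
Share of genes (percent, vertical axis) at or below each log2 difference of null minus all controls (horizontal axis, in steps of 0.1), for the 41 replication genes, the 13100 genes above background on 2 or more arrays and all 18193 genes. The curve of the replication genes lies to the left of the others, with a median of -0.61 against -0.06 and 0.03.

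Arrays within the null group differed from each other more than control arrays did. The median member deviated from its control mean by -1.07 log2 units on null array 1, -0.31 on null array 2 and -0.53 on null array 3. On heterozygous arrays 1, 2 and 3 the same value was 0.09, 0.02 and 0.05, and on WT arrays 1 and 2 it was -0.06 and -0.19. Null array 1 thus stood lowest, and it held the lowest reading of 21 of the 41 members. Members more than 2-fold below their control mean numbered 21 on null array 1, 8 on array 2 and 10 on array 3, against 0 on every heterozygous array and 2 and 7 on WT arrays 1 and 2. Among genes above background that share was 19.9%, 10.1% and 16.2% on the null arrays, against 51.2%, 19.5% and 24.4% of the members. WT array 2 also had an excess, with 17.1% of the members against 7.91% of these genes. The median within-group SD of a member was 0.72 in null, 0.30 in heterozygous and 0.41 in WT cells. Over genes above background on 2 or more arrays it was 0.51, 0.24 and 0.31. The wider null spread was therefore not particular to the members. Orc2, the most variable member in the null group, had an SD of 2.78. Each limma fit used 1 spread per probe set for all groups. Where null arrays varied more than controls, the SE and p of null comparisons can thus be too small.

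**Figure D2:**
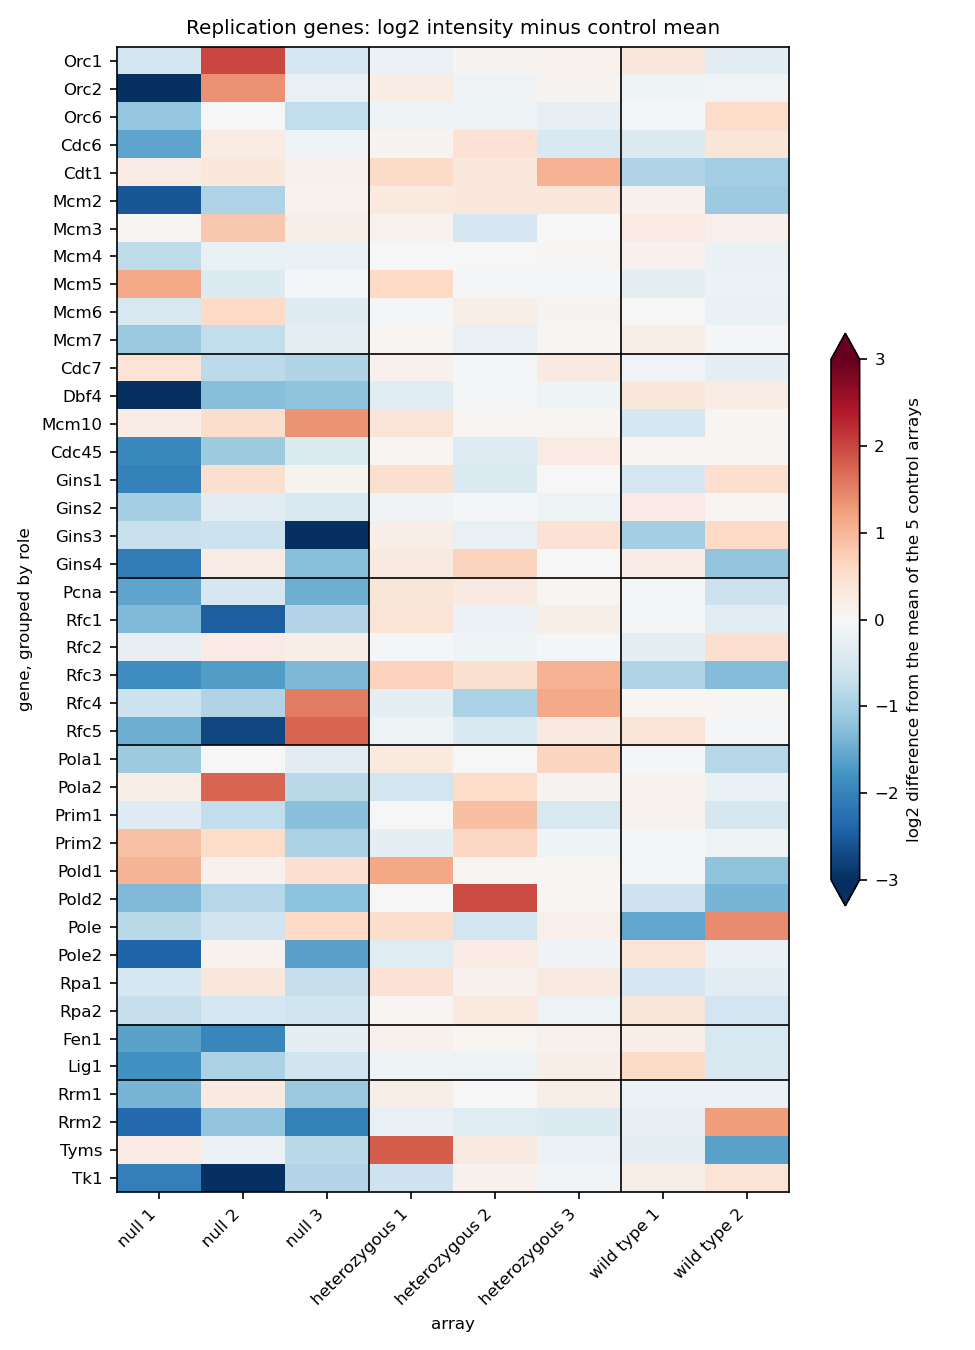
Log2 intensity of each of the 41 genes (rows, grouped by role) minus its mean over the 5 control arrays, on each array (columns). Blue is below and red above the control mean, and colours end at 3 log2 units. Null array 1 holds the most values below the control mean, 32 of 41, with 31 on null array 3, 23 on null array 2, against 14 to 19 on heterozygous arrays and 22 and 27 on WT arrays 1 and 2.

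Origin recognition and helicase loading genes had a median difference of -0.39 over 11 members, 7 of them below 0. The Mcm ring is the core of the replicative helicase. Mcm7 read 1215, 1575 and 2199 linear units on null arrays, against 2735, 2238 and 2689 on heterozygous and 2999 and 2553 on WT arrays. All null arrays lay below all controls, and the difference was -0.70 ± 0.20 log2 units (limma, unadjusted p = 0.00794, adjusted p = 0.244). Mcm6 read 1416, 2949 and 1503 on null arrays, against 1877, 2216 and 2074 on heterozygous and 1976 and 1707 on WT arrays. Here the groups overlapped, and the difference was -0.09 ± 0.25. Mcm4 differed by -0.39 ± 0.16 with no overlap (unadjusted p = 0.0410), and Mcm2 by -1.13 ± 0.60, with 28.5 units on null array 1 and 79.9 on WT array 2. Mcm3 (0.35 ± 0.23) and Mcm5 (0.22 ± 0.36) had differences above 0, with overlap. Of their further probe sets, 3 of 4 for Mcm3 (-0.30, -0.21, -0.07 and 0.40) and 1 of 2 for Mcm5 (-0.59 and 0.28) were below 0, so no direction can be given for either gene.

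The loaders themselves varied by array. Orc2, a core subunit of the origin complex, read 9.93, 421 and 138 units on null arrays, against 152 to 187 on heterozygous and 149 and 154 on WT arrays. The null arrays thus lay on both sides of the controls (-0.96 ± 1.03). Orc1, the largest subunit of that complex, was dim, at 6.99, 41.4 and 7.15 units on null arrays, against 9.12 to 11.2 on heterozygous and 12.9 and 8.17 on WT arrays, and it was above background on 6 of 8 arrays. Orc6 differed by -0.63 ± 0.29 and the loader Cdc6 by -0.50 ± 0.42, each with overlap. Cdt1, which brings the Mcm ring to the origin, differed by 0.22 ± 0.49 and is described with the heterozygous group.

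Among the 8 helicase activation genes the median difference was -0.82, and 7 were below 0. Dbf4, the activating subunit of Cdc7 kinase, had the largest difference of all members. It read 11.9, 83.0 and 87.5 units on null arrays, against 156, 196 and 183 on heterozygous and 248 and 235 on WT arrays. Every null array lay below every control array, a difference of -2.18 ± 0.63 log2 units or 4.54-fold (unadjusted p = 0.00880, adjusted p = 0.254 by limma). Without null array 1 the difference from WT passed the threshold (-1.50 ± 0.16, adjusted p = 0.0414), whereas with all arrays it was -2.45 ± 0.83 (adjusted p = 0.509). The second Dbf4 probe set, dimmer but above background on all 8 arrays, gave only -0.15 ± 0.40 (unadjusted p = 0.719 by limma). The probe sets of Dbf4 thus disagreed in size. Cdc7 itself differed by -0.43 ± 0.30 and overlapped.

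Cdc45, a helicase cofactor, read 7.38, 13.5 and 21.3 units on null arrays, against 29.5, 21.5 and 33.4 on heterozygous and 29.2 and 29.2 on WT arrays. No null array reached a control array, and the difference was -1.14 ± 0.32 (unadjusted p = 0.00810). The second Cdc45 probe set, above background on all 8 arrays, gave a smaller difference of -0.29 ± 0.23. The 4 GINS subunits form 1 complex and differed by -0.49 ± 0.57 (Gins1), -0.59 ± 0.18 (Gins2), -1.92 ± 0.89 (Gins3) and -1.04 ± 0.57 (Gins4). Gins2 alone of them did not overlap, with 381 to 608 units on null arrays against 682 to 726 on heterozygous and 783 and 899.5 on WT arrays. Gins3 read 77.6, 79.2 and 5.56 units on null arrays, against 142, 106 and 166 on heterozygous and 60.9 and 185 on WT arrays. Null array 3 was below array background and far under the other null arrays, and the null arrays overlapped WT array 1 (unadjusted p = 0.0627). Mcm10, which helps Cdc45 and the polymerase join the fork, was the 1 member higher at an unadjusted p under 0.05 (0.70 ± 0.29, unadjusted p = 0.0432, adjusted p = 0.423 by limma). It read 233, 291 and 513 units on null arrays, against 207 to 262 on heterozygous and 138 and 208 on WT arrays. Its further probe sets, above background on all 8 arrays, gave 0.39 ± 0.42 and -0.01 ± 0.65. The higher reading of Mcm10 thus rests on its brightest probe set.

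**Figure D3:**
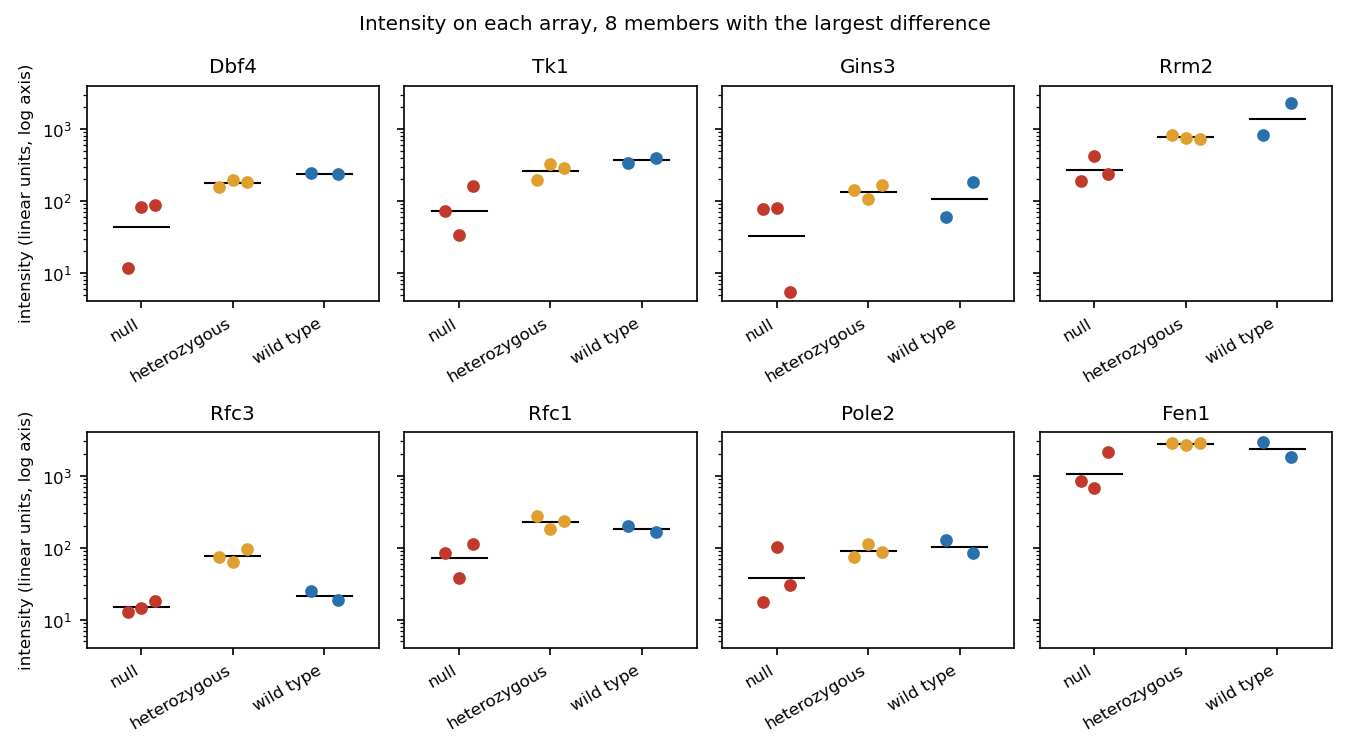
Intensity on each array (linear units on a log axis) of the 8 members with the largest difference of null minus all controls, with null, heterozygous and WT arrays from left to right and a line at each group's geometric mean. Null arrays lie below all controls in Dbf4, Tk1, Rrm2, Rfc3 and Rfc1 and overlap them in Gins3, Pole2 and Fen1.

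The clamp and its loader had a median difference of -1.0 over 6 genes, 5 below 0. Pcna, the sliding clamp, read 504, 1064 and 552 units on null arrays, against 1952, 1815 and 1586 on heterozygous and 1448 and 971 on WT arrays. All null arrays lay below the heterozygous arrays, and null array 2 overlapped WT (-1.18 ± 0.31, unadjusted p = 0.00564, adjusted p = 0.209 by limma). Rfc1, the large subunit of the clamp loader, read 82.9, 37.7 and 113 units on null arrays, against 277, 184 and 235 on heterozygous and 199.7 and 163 on WT arrays. It had the smallest adjusted p of any member in this comparison (-1.56 ± 0.35, adjusted p = 0.142). Its further probe sets differed by -0.71 and -1.11.

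Small subunits of the loader did not follow Rfc1 as a group. Rfc2 read 692, 970.2 and 932 units on null arrays, against 801, 748 and 785 on heterozygous and 674 and 1145 on WT arrays, a difference of 0.07 ± 0.20 with full overlap. Rfc4 read 221, 186 and 999 units on null arrays, against 286, 181 and 760.0 on heterozygous and 359 and 357 on WT arrays (-0.01 ± 0.64). The second Rfc4 probe set gave -1.76 ± 0.52 (unadjusted p = 0.0103), so its probe sets disagreed in size. Rfc5 read 33.4, 13.8 and 306 units on null arrays, with controls of 67.0 to 122 between them (-0.82 ± 0.87). Rfc3 is described with the heterozygous comparison.

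Polymerase, primase and single-strand binding genes had a median of -0.37 over 10 members, and none of them separated null arrays from all controls. Pole2, the second subunit of the leading-strand polymerase, read 17.8, 103 and 30.7 units on null arrays, against 74.2, 113 and 87.8 on heterozygous and 126 and 82.8 on WT arrays. Null arrays 1 and 3 were low and array 2 lay among the controls (-1.31 ± 0.51, unadjusted p = 0.0352). Without null array 2, which held the highest null reading, its difference was -2.02 ± 0.29 and passed (adjusted p = 0.0267 by limma). Leaving out that array widens the difference by itself. Without it 792 of all 45037 probe sets passed, against 262 with all arrays. Rpa2, of the complex that coats single-stranded DNA, read 243, 274 and 261 units on null arrays, against 355 to 487 on heterozygous and 268 and 512 on WT arrays (-0.61 ± 0.22). Rpa1 differed by -0.29 ± 0.31.

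The other polymerase genes gave Pola1 -0.46 ± 0.36, Pola2 0.39 ± 0.53, Prim1 -0.80 ± 0.35, Prim2 0.17 ± 0.42, Pold1 0.54 ± 0.48, Pold2 -1.14 ± 0.66 and Pole -0.28 ± 0.65 for null minus all controls. Pola1 and Pola2 belong to the polymerase that starts each strand with the primase of Prim1 and Prim2, while Pold1 and Pold2 belong to the lagging-strand polymerase. Further probe sets of Pola2 (-0.57, above background on 6 arrays), Prim2 (-0.53) and Pold1 (-0.65) had the opposite sign to the brightest. No direction can therefore be given for these genes. None of the 7 had an unadjusted p under 0.05.

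Both genes of Okazaki fragment joining had differences below 0 (median -1.20). Fen1, the flap nuclease, read 852, 665 and 2112 units on null arrays, against 2835, 2665 and 2828 on heterozygous and 2896 and 1831 on WT arrays. Only null array 3 overlapped, and only WT array 2 (-1.28 ± 0.37, unadjusted p = 0.00858 by limma). The second Fen1 probe set, dimmer but above background on all 8 arrays, gave only -0.22 ± 0.25 (unadjusted p = 0.405 by limma). The probe sets of Fen1 thus disagreed in size. Without null array 3, which held the highest null reading, the brightest probe set of Fen1 differed by -1.77 ± 0.22 and passed (adjusted p = 0.0211 by limma). Leaving out that array widens the difference by itself. Without it 409 of all 45037 probe sets passed, against 262 with all arrays. Lig1, the ligase that seals the fragments, read 92.0, 166 and 211 units on null arrays, against 294, 289 and 365 on heterozygous and 478 and 233 on WT arrays, with no overlap (-1.13 ± 0.32, unadjusted p = 0.00814).

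Nucleotide supply genes had the lowest median of the role groups, -1.30 over 4 genes. Rrm2, the small subunit of ribonucleotide reductase that is made in S phase, read 192, 425 and 238 units on null arrays, against 826, 750.3 and 727 on heterozygous and 823 and 2329 on WT arrays. All null arrays were below all controls, a 3.61-fold difference (-1.85 ± 0.44, unadjusted p = 0.00313, adjusted p = 0.161 by limma). Its 3 probe sets gave -1.85, -1.94 and -2.11, and their mean passed the threshold (-1.97 ± 0.28, adjusted p = 0.0160). Tk1, the salvage enzyme thymidine kinase 1, read 72.3, 33.6 and 163 units on null arrays, against 195, 327 and 284 on heterozygous and 337 and 401 on WT arrays. It too separated the groups (-2.03 ± 0.48, 4.09-fold, adjusted p = 0.158 by limma). Without null array 3, which held the highest null reading, it passed (-2.61 ± 0.37, adjusted p = 0.0337 by limma). Leaving out that array widens the difference by itself.

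The large reductase subunit Rrm1 read 396, 1239 and 473 units on null arrays, against 1044 to 1175 on heterozygous and 906 and 908 on WT arrays. Null array 2 was the highest of the 8 and the other null arrays the lowest (-0.75 ± 0.35). Without null array 2 the difference was -1.25 ± 0.17 (adjusted p = 0.0211 by limma), and leaving out that array widens it by itself. Tyms, which makes thymidylate, was dim and scattered in every group, at 13.9 to 29.1 units on null arrays against 21.4 to 85.7 on heterozygous and 8.06 and 19.9 on WT arrays (-0.25 ± 0.68).

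**Figure D4:**
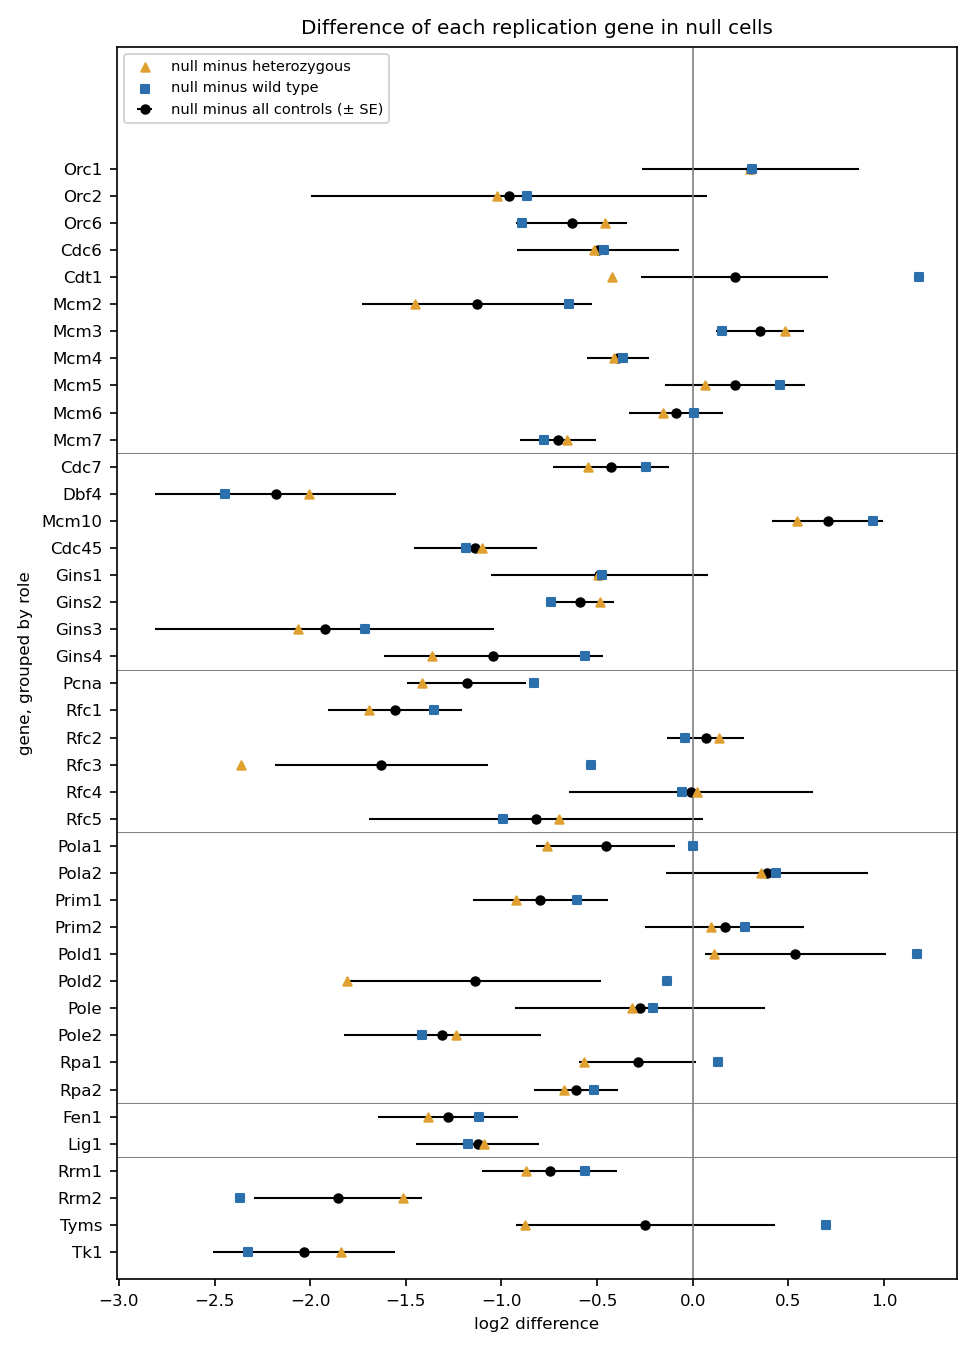
Log2 difference of null minus all controls for each member (black points, bars are limma standard errors), with null minus heterozygous (triangles) and null minus wild type (squares), in rows grouped by role. Of the black points 32 of 41 lie below 0, and triangle and square are farthest apart in Rfc3, Pold2, Cdt1 and Tyms.

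Further probe sets gave a second reading for 32 of the members. Of 50 such probe sets, 37 were above background on 6 or more arrays, and 26 of these 37 had the sign of the brightest one. By unadjusted p under 0.05, 6 of the 37 were lower and 1 higher in null cells. Over all 45037 probe sets, 5190 had such a p in either direction. Among genes above background on 2 or more arrays, by brightest probe set, 11.1% were lower and 5.86% higher. The higher probe set of the 37 belonged to Mcm6 (1.10 ± 0.27, unadjusted p = 0.00385), whose brightest probe set gave -0.09, so no direction can be given for Mcm6. Gins2 agreed in both probe sets (-0.59 and -0.90), and all 4 of Mcm7 were below 0 (-0.34 to -0.70).

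Null was next set against each control group alone. These comparisons share the null arrays, so their values are given side by side. Against WT the member median was -0.51 with 29 of 41 below 0, and against heterozygous it was -0.68 with 32 below 0. Over all genes the medians were 0.00 and 0.06. Against WT, limma called 0 members, with 0.126% of all genes lower and 0.390% higher. Unadjusted, 9 members (22%) were lower and 3 (7.32%) higher (Cdt1, Pold1 and Mcm10), against 5.91% and 3.37% of all genes. Among genes above background on 2 or more arrays the shares were 8.02% and 4.45%. Against heterozygous, 1 member passed as lower, against 0.313% of all genes lower and 0.456% higher. Unadjusted, 13 (31.7%) were lower and 0 higher, against 7.88% and 5.12% of all genes and 10.9% and 4.95% of genes above background. With cyclic loess normalization these medians were -0.26 against WT and -0.28 against heterozygous, and with the pseudocount -0.34 and -0.45. Without null array 1 the median against WT was -0.086, and without WT array 1, which left 1 WT array, it was -0.33.

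The member that passed was Rfc3, a small subunit of the clamp loader. It read 12.7, 14.4 and 18.1 units on null arrays, against 74.1, 63.4 and 95.3 on heterozygous and 24.7 and 18.7 on WT arrays. Null cells were lower than heterozygous cells by 2.36 ± 0.22 log2 units (a difference of -2.36; limma, adjusted p = 0.0115). Against WT the difference was -0.53 ± 0.25 (adjusted p = 0.700). The heterozygous arrays were the ones apart from both other groups. Rfc3 no longer passed by limma without heterozygous array 1 (adjusted p = 0.0761) or array 3 (adjusted p = 0.0506). It also did not pass with the mean of its probe sets (-1.59, adjusted p = 0.0705) and without null array 1 and WT array 2 together (adjusted p = 0.0599). Over all 15 alternatives its adjusted p ran from 0.0108 to 0.0761, and 11 passed.

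Heterozygous was compared with WT to see what loss of 1 allele goes with. Replication genes had a median difference of 0.16, with 28 of 41 above 0, and the median over all genes was -0.05. Limma called 0 members here, and of all 18193 genes by brightest probe set 0% passed as lower. At an unadjusted p under 0.05, 3 members differed (7.32%), all 3 higher in heterozygous cells, against 5.90% of all genes in either direction. Among genes above background on 2 or more arrays that share was 7.11%, near that of the members. With cyclic loess normalization the member median was -0.01, so its direction was not kept. The largest difference was in Rfc3 (1.83 ± 0.25, unadjusted p = 0.000179, adjusted p = 0.434 by limma), whose second probe set gave 0.92. Pold2 read 43.4, 166 and 44.1 units on heterozygous arrays, against 28.0 and 16.3 on WT arrays (1.67 ± 0.61), and its 17.0, 23.8 and 18.3 units on null arrays were near WT. Heterozygous array 2 stood far above the other heterozygous arrays.

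Cdt1 read 504, 422 and 703 units on heterozygous arrays, against 181 and 168 on WT arrays. All heterozygous arrays were above both WT arrays, by 1.60 ± 0.22 log2 units (unadjusted p = 0.000222, adjusted p = 0.434 by limma). On null arrays it read 395, 421 and 373 units, which is also above WT (1.18 ± 0.22, unadjusted p = 0.00132, adjusted p = 0.163). Both differences use the same 2 WT arrays, and neither passed the threshold. Its second probe set gave smaller values, 0.81 for heterozygous minus WT and 0.47 for null minus WT.

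Other genes of replication and nucleotide metabolism, 86 measured of 90 listed, were read beside the members. Against all controls 3 passed as lower and 0 as higher by limma, 23 were lower and 3 higher unadjusted, and their median was -0.41. Of all genes, 0.379% passed as lower and 0.555% as higher, and 7.98% were lower and 5.51% higher unadjusted. Among genes above background on 2 or more arrays the unadjusted shares were 11.1% and 5.86%. Tipin, which stabilises stalled forks with Timeless, fell to 205, 159.8 and 159 units in null cells, against 353 to 432 in heterozygous and 313 and 397 in WT cells (-1.12 ± 0.15, adjusted p = 0.0223). Top1, the topoisomerase that relaxes DNA ahead of the fork, fell to 54.6, 51.9 and 47.6 units in null cells, against 153 to 259 in heterozygous and 108 and 209 in WT cells (-1.81 ± 0.27, adjusted p = 0.0375). Dut, which removes dUTP and gives the precursor of thymidylate, fell to 366, 528 and 514 units in null cells, against 933 to 1113 in heterozygous and 826 and 1068 in WT cells (-1.11 ± 0.17, adjusted p = 0.0399). These 3 genes thus separated null from every control array. Of the 29 other fork and licensing factors 2 passed (Tipin and Top1) and their median was -0.56. Rnaseh2b (-2.12 ± 0.70), Mcm9 (1.69 ± 0.39) and Orc4 (1.30 ± 0.64) differed without passing. Rnaseh2b encodes a subunit of the enzyme that removes ribonucleotides from DNA.

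Of 28 measured genes of other nucleotide metabolism, 1 passed against all controls (Dut) and the median was -0.57. Against WT alone Samhd1, an interferon-induced enzyme that breaks down deoxynucleotides, rose to 1827, 1028 and 589 units in null cells, against 34.4 and 72.4 in WT cells (4.37 log2 units, adjusted p = 0.0334 by limma). It read 149 to 228 in heterozygous cells. Against heterozygous alone Mthfd2, a mitochondrial folate enzyme, rose to 576, 420.4 and 612 units in null cells, against 98.3 to 142 in heterozygous cells (2.10 log2 units, adjusted p = 0.0230), with 233 and 336 in WT cells. Pfas (-1.69 ± 0.62) and Shmt1 (-1.21 ± 0.58) did not pass. Among 13 E2F and Rb family genes 0 passed by limma and 3 were lower unadjusted, with a median of -0.23. Lower unadjusted were 7.98% of all genes and 11.1% of genes above background, for comparison with this and the following lists. Tfdp1, the partner of E2F proteins, read 30.3, 213 and 103 units on null arrays, against 352 to 460 on heterozygous and 334 and 363 on WT arrays (-2.14 ± 0.54, adjusted p = 0.188). E2f6 (-1.96 ± 0.37), E2f1 (-1.28 ± 0.86) and Rb1 (-0.94 ± 0.26) did not pass either. Of 7 genes of histone and methyl-mark inheritance 0 passed, with 2 lower unadjusted and a median of -0.35 (Uhrf1 -0.72 ± 0.29, Supt16 -0.50 ± 0.47, Dnmt1 -0.48 ± 0.15 and Asf1a 0.36 ± 0.24). Of 9 replication checkpoint genes 0 passed and 1 was lower unadjusted (median -0.22), with Chek1 at -1.05 ± 0.65, Cdc25a at -0.91 ± 0.39, Rad1 at -0.41 ± 0.38 and Wee1 at 0.39 ± 0.78.

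Some other features of the arrays differed between genotypes, and others overlapped. The share of tested probe sets that exceeded background was 40.0% to 46.4% on null arrays, against 51.2% to 61.2% on heterozygous and 45.6% and 51.5% on WT arrays, and null array 1, where the members were lowest, had the lowest share. The upper quartile of log2 intensity was 3.99, 4.41 and 4.01 on null arrays, against 4.41 to 4.52 on heterozygous and 4.35 and 4.20 on WT arrays. The ratio of 3′ to 5′ Gapdh probe sets, a sign of RNA quality, was 7.45 to 8.73 on null arrays, against 4.784 to 8.996 on heterozygous and 4.39 and 4.32 on WT arrays. The same ratio for Actb was 0.552 to 0.745 on null arrays, a range that held all controls. It was 0.648 to 0.703 on heterozygous and 0.650 and 0.645 on WT arrays. Spike-in control probe sets averaged 11.33 to 12.01 log2 units on null arrays, against 10.95 to 11.07 on heterozygous and 11.42 and 11.54 on WT arrays. Correlation between arrays of a group was 0.862 to 0.886 in null, against 0.968 to 0.973 in heterozygous and 0.915 in WT. Of 7 measured housekeeping genes, 1 fell (Gusb, -2.15 ± 0.34, adjusted p = 0.0469 by limma) and 4 were lower unadjusted (Hprt -1.48, Pgk1 -0.96 and Ywhaz -0.56 besides Gusb), with a median of -0.56 beside -0.61 for the members. Of all genes, 0.379% passed as lower and 7.98% were lower unadjusted. Hepatocyte markers (8 of 10 measured) summed to 64.5 to 89.8 linear units on null arrays, against 627 to 1076 on heterozygous and 203 and 625 on WT arrays, and Afp fell (-5.11 ± 0.79, adjusted p = 0.0403 by limma). Macrophage markers (10 of 10) summed to 80.0 to 102 units on null arrays, against 381 to 503 on heterozygous and 295 and 888 on WT arrays, with Adgre1 at background on every array, Csf1r, C1qc, Mrc1, Cd68 and C1qa at background on every null array, and Lyz2 lower (-2.54 ± 0.34, adjusted p = 0.0207 by limma). Erythroid markers (7 of 10) summed to 851 to 895 on null, 1002 to 1030 on heterozygous and 584 and 679 on WT arrays. Stem and progenitor markers (10 of 12, with Procr at background on every array) summed to 585 to 1353 on null, 1004 to 1120 on heterozygous and 936 and 1294 on WT arrays. Ly6a (Sca-1) had no probe set of its own, and Kit, the other sorting marker, read only 9.33 to 13.3 units on null and 11.7 to 23.5 on control arrays. Lymphoid markers (6 of 6) summed to 37.3 to 46.3 on null arrays against 33.8 to 44.4 on controls, and megakaryocyte markers (5 of 5) to 4496 to 5640 on null arrays against 4455 to 5094. The part of other cell types and of array quality in the differences of the replication genes was not tested.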

How the data were processed

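Labelled RNA of sorted cells was hybridised to Affymetrix mouse arrays, 1 mouse per array. The authors deposited linear intensity values, 1 per probe set, made with RMA according to the submitters' processing notes (version not given in the sources used here). Array quartiles differed, so the deposited values do not share 1 distribution. No sample column was left unused (0). Log2 was taken with no pseudocount. Of 45101 probe sets, 64 controls were left out and 45037 tested. The platform annotation gave 34945 of these 1 gene, 932 several and 9160 none, and 34741 were matched to RefSeq by gene number for current symbols. Background was the highest of 27 Bacillus control probe sets on each array. Null minus all controls came from a 2-group model, and the 3 pairwise differences between genotypes from a 3-group model on all 8 arrays (limma 3.58.1, R 4.3.3, lmFit and eBayes, two-sided, Benjamini-Hochberg over all tested probe sets, threshold 0.05). Errors after ± are limma standard errors unless marked SD, and they assume the same spread in every group. The method was tested on simulated data.

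The members, lists and tests were chosen with earlier results of these data known, so no list was tested as a set. Genes shown on every array were the 8 with the largest and the 3 with the smallest absolute difference from all controls and the 3 with the largest between heterozygous and wild type. Of each other list up to 4 genes with the largest difference from all controls were to be named. Other genes were chosen after their values were seen. Replicates were numbered in order of deposit. Alternatives were quantile and cyclic loess normalization, a filter above background on 2 or more arrays, a pseudocount of 32, the mean of all probe sets of a gene, the 2 groups alone and leaving out each array. Leaving out null array 1 and WT array 2 together was added after seeing the data. The number of arrays limits the precision. Promoter windows and gene symbols are from RefSeq (GRCm38.p6), and the build behind the probe sets is not given in the sources used here.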

Additional observations from a re-analysis of the deposited data

How the results depend on the processing

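No paired analysis was possible because the labels number no replicates across groups. The member median kept its sign in the 3 comparisons with null under every alternative run. With cyclic loess normalization it shrank to -0.27 against all controls, -0.26 against WT and -0.28 against heterozygous (medians of all genes 0.02, 0.02 and 0.03), and the cause was not tested. Leaving out 1 array at a time gave -0.73 to -0.41 against all controls, -0.56 to -0.086 against WT and -0.89 to -0.45 against heterozygous. The highest value came without null array 1 in each. Heterozygous minus WT gave 0.13 to 0.24 over left-out arrays and changed sign with cyclic loess (-0.01). Members past the threshold against all controls were 0 to 2 over left-out arrays (Pole2 and Rrm1 without null array 2, Fen1 and Tk1 without null array 3). In each of these genes the array left out held the highest null reading. With the mean of probe sets 2 members passed against all controls (Gins2 and Rrm2). Against WT the members past the threshold were 0 to 1 (Dbf4 without null array 1). Against heterozygous they were 0 to 3, with Pcna and Rrm1 joining Rfc3 when null array 2 was dropped, Fen1 joining it when null array 3 was dropped, and 0 when heterozygous array 1 or 3 was dropped. They were 0 without null array 1 and WT array 2 together. With the mean of probe sets the 1 gene against heterozygous was Rrm2 instead of Rfc3. Of all probe sets, 262 passed against all controls, but 792 when null array 2 was dropped, 409 when null array 3 was dropped, and 156, 170 and 168 when heterozygous array 1, 2 or 3 was dropped. Against WT 147 passed, but 62 with the pseudocount, 4 with the 2 groups alone and 239 when null array 2 was dropped. It was 65, 90 and 68 when heterozygous array 1, 2 or 3 was dropped. Against heterozygous 226 passed, but 126 with the pseudocount, 581 when null array 2 was dropped, and 63, 73 and 82 when heterozygous array 1, 2 or 3 was dropped. Heterozygous minus WT gave 1, but 5 with the pseudocount and 0 in 8 alternatives. Leaving out a WT array left 1 array in that group, so counts of the comparisons with WT are not given for those alternatives. Of the 574 member values against all controls over 14 alternatives, 521 kept sign and side of the threshold, 47 changed sign without passing and 6 newly passed. Signal over background limits Orc1 (above it on 6 of 8 arrays) and Cdc45, Gins3 and Tyms (7 of 8).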
